A study of Homo sapiens with 2 samples.

Results

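The cytosolic ribosomal protein genes and their paralogs were taken as every gene of the deposited table whose symbol has the form RPL, RPS, RPLP or RPSA followed by the usual number and letter, and 85 of 36027 genes matched. They comprised 43 genes of the large subunit, 3 genes of the acidic stalk (RPLP0, RPLP1 and RPLP2), 31 genes of the small subunit and 8 paralogs (RPS27L, RPL22L1, RPL39L, RPL36AL, RPL7L1, RPL26L1, RPL3L and RPL10L). Only symbols were used in this choice, and no measured value. The study asked how ectopic induction of mutant HRAS acts on single cells of SK-N-BE(2)-C, an established human neuroblastoma line with MYCN amplification. Both cultures were of SK-N-BE(2)-C-pIND-HRASV12, which carries the inducible construct; the induced culture received 100 ng/ml doxycycline for 13 days and the control culture received 0 ng/ml over the same time. HRASV12 is a mutant of HRAS, a small GTPase of growth factor signalling, that remains in its active state. There was 1 library per culture, so no difference below has a replicate check, every interval covers counting error only, and effects of doxycycline itself, of the culture and of the library cannot be told apart from that of HRASV12.

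Ribosomal proteins fold around the ribosomal RNA, the large subunit carrying out peptide bond formation and the small subunit decoding the message. Their transcripts are among the most abundant of a growing cell, and many begin with a C followed by a run of C and T, the terminal oligopyrimidine tract, through which the growth-regulated kinase mTOR and the RNA-binding protein LARP1 control their translation. A few members have a second gene copy whose protein can take the place of the main one, among them RPL39L, known from the testis, RPL22L1, known from blood cell development, and RPS27L, a known target of p53.

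Values are whole-number counts per gene and cell from a 3′ droplet assay; how duplicates were collapsed is not stated. Levels are given in CPM (counts scaled to a library total of 1000000) and compared between libraries for the same gene, not between genes as copies per length. The induced library held 666 cells with 80359736 counts (median 111582 per cell) and the control library 956 cells with 95350640 counts (median 85821 per cell), with 0 cell barcodes in common. HRAS had 161 CPM with doxycycline against 109 CPM without, 1.47 times the control level (95% interval 1.43 to 1.51); 3′ counts do not separate the transgene from the native gene. Of the 10 adrenergic neuroblastoma markers 9 reached 10 CPM. The markers of Schwann cell precursors, immune, erythroid and epithelial cells were all under 10 CPM in both libraries. Of 5 fibroblast markers LUM passed that level, with 64.5 against 18.5 CPM, and of 7 endothelial markers EGFL7 (53.4 against 96.4 CPM) and ESAM (10.7 against 3.22 CPM) did. The induced library also contained more cells with few mitochondrial and few MALAT1 counts (5th percentile of mitochondrial percent 1.44, against 8.52 in the control, and of MALAT1 33.6 against 238 CPM), and 90 of 90 measured genes of the S and the G2 and M phase lists were lower in it, with list medians of -0.87 and -0.80 on the log2 scale. Their part in the results was not tested; medians and counts within cells limited by these measures are given for the family, its subunits and the gene lists.

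The sequences around the annotated starts are shown for the pairs of main copy and paralog, because paralogs and main copies can differ at the oligopyrimidine tract, and for 3 members at the ends of the range of differences between the libraries. Each line holds 30 bases before and 20 bases from the annotated start, 5′ to 3′ on the gene's strand, from RefSeq on GRCh38.p14. Capitals mark an unbroken run of C and T that begins with a C at the first transcribed base and goes on for at least 4 more letters; a line with no capitals has no such run at that start.
RPS27 (chr1:153990732-153990781, plus strand): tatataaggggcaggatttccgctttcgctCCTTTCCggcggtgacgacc
RPS27L (chr15:63157458-63157507, minus strand): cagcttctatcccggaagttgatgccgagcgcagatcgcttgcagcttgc
RPL22 (chr1:6199576-6199625, minus strand): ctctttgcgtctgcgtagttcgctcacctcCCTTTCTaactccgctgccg
RPL22L1 (chr3:170870176-170870225, minus strand): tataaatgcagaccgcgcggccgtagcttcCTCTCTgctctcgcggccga
RPL26 (chr17:8383174-8383223, minus strand): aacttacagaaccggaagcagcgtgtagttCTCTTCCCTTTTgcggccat
RPL26L1 (chr5:172958699-172958748, plus strand): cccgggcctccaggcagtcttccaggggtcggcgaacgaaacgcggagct
RPL36A (chrX:101390981-101391030, plus strand): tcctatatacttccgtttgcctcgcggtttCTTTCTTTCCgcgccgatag
RPL36AL (chr14:49620607-49620656, minus strand): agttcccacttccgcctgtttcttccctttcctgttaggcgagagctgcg
RPL39 (chrX:119791611-119791660, minus strand): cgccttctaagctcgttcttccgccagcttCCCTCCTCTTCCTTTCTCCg
RPS3 (chr11:75399488-75399537, plus strand): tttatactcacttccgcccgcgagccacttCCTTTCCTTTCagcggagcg
RPS29 (chr14:49598691-49598740, minus strand): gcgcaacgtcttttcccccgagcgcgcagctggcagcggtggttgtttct
RPS26 (chr12:56041888-56041937, plus strand): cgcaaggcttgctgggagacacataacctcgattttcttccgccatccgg

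RefSeq's table of promoters held 68 of the 85 symbols. The tract lay at an annotated start of 46 of 62 matched main members (74.2%) and of 1 of 6 matched paralogs (16.7%, RPL22L1), beside 5.14% of all 27305 symbols in the table. The tracts of RPL22 and RPL22L1 differ in letters. By this rule RPS27, RPL26 and RPL36A carry one at the annotated start where their paralogs RPS27L, RPL26L1 and RPL36AL do not. In RPL36AL, however, an unbroken run of C and T begins before the annotated start and spans it. Whether RPL36AL has a tract thus depends on the exact start. RPL39L and RPL3L were not among the matched symbols, so RPL39 is shown alone. The motif CCGGAAG, searched on both strands of the 300-base windows, was present in 35.5% of the main members and 33.3% of the paralogs, against 12.2% of all symbols. A match is a description of the letters only, and an annotated start can lie a few bases from the one that cells use. The log2 ratio of induced over control had a median of -0.15 for the 46 main members with the tract at an annotated start and -0.10 for the other 16. Some of these 16, RPL19 and RPL4 among them, have a run of C and T across or near an annotated start. The 2 medians therefore cannot compare members that have a tract with members that lack one.

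Members made up 14.9% of all counts in the induced library and 16.5% in the control library, a log2 ratio of -0.145, and the difference was spread thinly over many genes. Mitochondrial genes took 9.54% and 12.7% of the counts, and outside them the family's share was 16.5% against 18.8%. Whether the family's summed level stood lower depends on the scale: with TMM factors its log2 ratio was -0.03, and with DESeq2 size factors it was 0.02. All of these scales are relative, and none gives the absolute amount per cell. Beside the other genes the members were lower, their median log2 ratio lying 0.08 below that of all measured genes (-0.12 against -0.04 for the library total as scale). A change of scale shifts all genes nearly alike. The same difference on all 3 scales is therefore no separate result.

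Of the 85 members 83 were measured, that is, had at least 10 CPM in either library. At a threshold of 1.2-fold, 3 of the 83 were higher in the induced library, beside 24.9% of all 9017 measured genes, and 21 were lower, beside 28.1%. At 1.5-fold no member passed in either direction, while 10.3% of measured genes were higher and 7.73% lower. The share of members lower was thus near the background over all cells and the share higher was well under it. This did not hold within limited sets of cells. Among the 406 induced and 871 control cells that were not under the control's 5th percentile of mitochondrial percent or of MALAT1, 42 of 83 members were lower, beside 17.5% of measured genes, and 0 higher, beside 23.7%. Among the 264 induced and 67 control cells with the fewest cell cycle counts, 55 of 83 were lower, beside 23.4%. The log2 ratios over all cells ran from -0.57 to 0.45 with an SD of 0.19, against an SD of 0.54 over all measured genes. The split of called members moved with the scale, from 12.5% higher (3 against 21) to 31.2% with TMM factors (5 against 11) and 53.8% with DESeq2 size factors (7 against 6). The split of all called genes moved too, from 47.0% higher to 63.7% and 70.2%, so the members' share stayed below it on each scale. The median of all measured genes itself moved from -0.04 to 0.08 and 0.13.

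**Figure D1:**
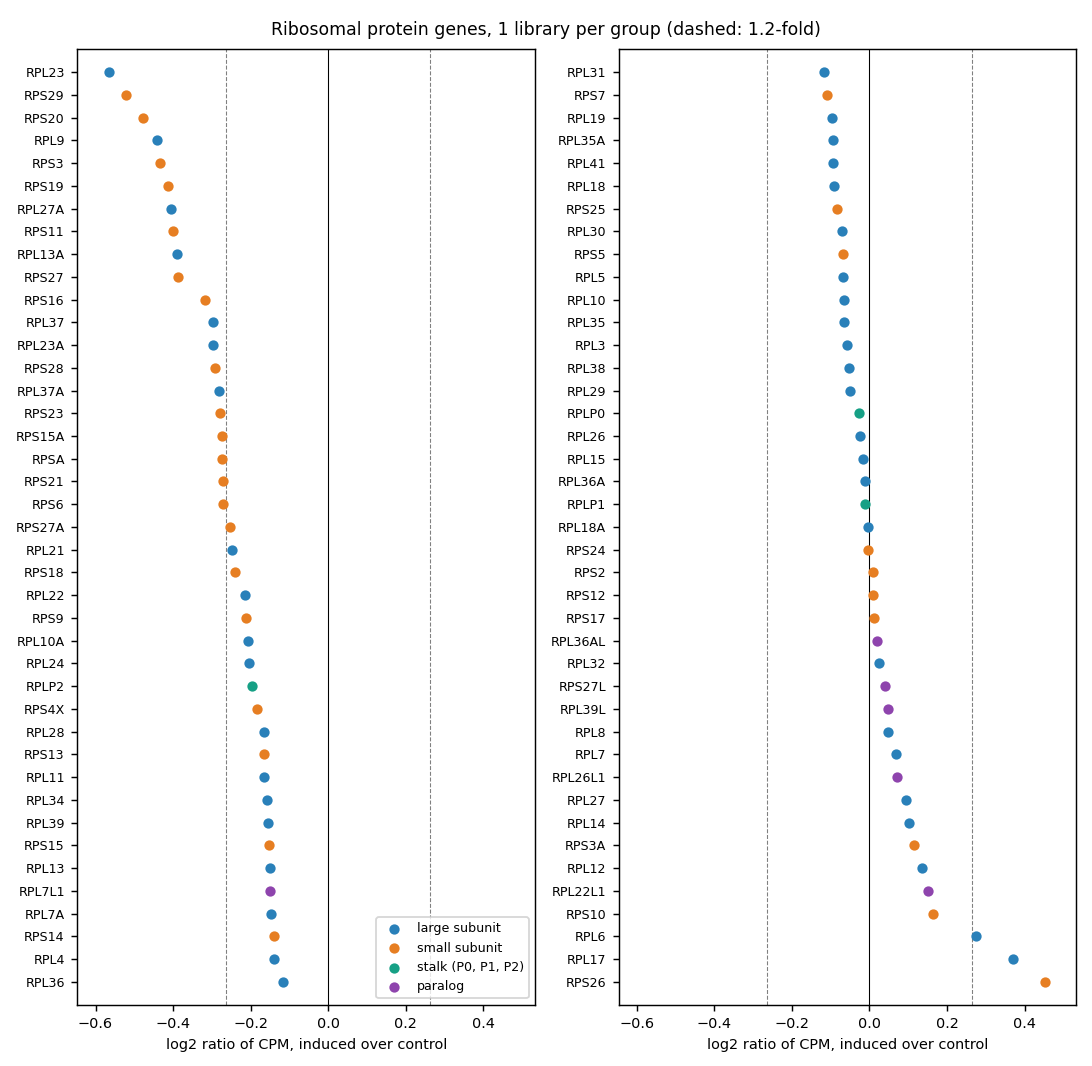
Log2 ratio of CPM, induced over control library, for the measured members reported here, in order and coloured by role; dashed lines mark 1.2-fold. Points run from RPL23 at -0.57 to RPS26 at 0.45, small-subunit genes make up most of the points past the lower line, and the paralogs other than RPL7L1 lie at or above 0.

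Among the 43 large-subunit genes 2 exceeded 1.2-fold upward (4.65%) and 7 downward (16.3%), beside 24.9% and 28.1% of all measured genes. Their median log2 ratio was -0.10. The median was -0.26 under the limit on MALAT1 and mitochondrial percent and -0.34 in the cells with the fewest cell cycle counts, beside 0.02 and 0.07 for all measured genes. RPL23, a large-subunit protein that can also bind the p53 regulator MDM2, had the lowest ratio of the family, with 816 CPM (95% interval 810 to 822) in the induced library against 1209 CPM (1202 to 1216) in the control, a log2 ratio of -0.57. RPL9 stood at 32.5 against 44.6 CPM, but only 45.9% of the 31-base words in the last 300 bases of its annotated transcripts are unique to it, so its low counts are uncertain. RPL27A (249 against 330 CPM) and RPL13A (240 against 315 CPM) were the next lowest of the subunit. Of their words 75.3% and 53.9% are unique, so the level of RPL13A is uncertain too. At the other end RPL17 stood at 45.7 against 35.2 CPM and RPL6 at 996 against 823 CPM, log2 ratios of 0.37 and 0.28. RPL17 was past 1.2-fold in 11 of 13 alternative settings. Settings that change only the filter leave a gene's ratio as it is, and pseudocounts change it little at these levels. Such tallies therefore include settings that could hardly alter the call. Only 22.8% of the words of RPL17 and 7.85% of those of RPL6 are unique, so reads of near-identical copies, their pseudogenes among them, cannot be told apart from their own. RPL6 was past 1.2-fold in 7 of 13 alternative settings and stood at -0.08 among cells with the fewest cell cycle counts. RPL12, part of the stalk base, stood at 3141 against 2859 CPM, a log2 ratio of 0.14. RPL41 and RPL10, of the 5 members with the most control counts, were close to the family median, at -0.09 and -0.07.

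The 3 stalk genes, whose proteins recruit the translation factors, included none past 1.2-fold, beside 24.9% higher and 28.1% lower among all measured genes. Their median log2 ratio was -0.03 over all cells, -0.22 under the limit and -0.16 in the cells with the fewest cell cycle counts. RPLP1 had the most counts of all members in both libraries, 8290 CPM (8270 to 8310) in the induced library against 8350 CPM (8332 to 8368) in the control, a log2 ratio of -0.01. RPLP0, the stalk's anchor, stood at 1477 and 1505 CPM, and RPLP2 at 1450 and 1663 CPM, a log2 ratio of -0.20. Their share of the family's counts was 7.53% in the induced library against 6.996% in the control.

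Of the 31 small-subunit genes 14 passed 1.2-fold downward (45.2%) and 1 upward (3.23%), beside 28.1% and 24.9% of all measured genes. Their median log2 ratio was -0.24, and the difference from the large subunit's counts was not tested. The median was -0.31 under the limit and -0.43 in the cells with the fewest cell cycle counts. Under the limit 22 of 43 large-subunit genes (51.2%) and 19 of 31 small-subunit genes (61.3%) were lower, beside 17.5% of all measured genes. RPS29, which contacts the incoming message, had 846 CPM (839 to 852) in the induced library against 1214 CPM (1207 to 1221) in the control, a log2 ratio of -0.52. RPS20 followed with 468 and 652 CPM (-0.48) and RPS3, which lines the entry of the message channel and also takes part in DNA repair, with 2729 and 3687 CPM (-0.43). RPS19, mutated in Diamond-Blackfan anaemia, had 3456 and 4604 CPM (-0.41). RPL23, RPS29, RPS20, RPL9 and RPS3 were at least 1.2-fold lower in 13 of 13 alternative settings, and RPS19 and RPS27 in 12. Here too the filter and pseudocount settings could hardly alter the calls. RPSA, also known as the laminin receptor, stood at 839 against 1015 CPM, a log2 ratio of -0.27. RPS12, like RPS19 among the 5 members with the most control counts, was at 0.01. RPS10 (475 against 424 CPM) was higher by 0.16.

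The subunit shares followed these values, and they do not depend on the scale of the libraries. With their paralogs and the stalk, large-subunit genes held 56.8% of the family's counts in the induced library against 54.6% in the control, a difference of 2.25 percentage points. The difference was 2.16 points without the 5 members with the most counts and between 1.53 and 2.35 points in the other settings that moved it. Over cells at equal depth the median large-subunit share was 56.8% (5th to 95th percentile 53.6 to 59.98%) in the induced library against 54.5% (52.9 to 56.5%) in the control, so both distributions overlap.

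RPS26, a small-subunit protein at the exit of the message channel, had the highest ratio of the family, with 220 CPM (217 to 224) in the induced library against 161 CPM (158 to 163) in the control, a log2 ratio of 0.45. Its excess lay in the cells with few mitochondrial or few MALAT1 counts. Under the limit on both measures, which left 406 induced and 871 control cells, RPS26 stood at 158 CPM in each library. In the remaining 260 induced cells it stood at 293 CPM (288 to 299), and in the remaining 85 control cells at 188 CPM (179 to 196). Its spread between cells beyond counting noise was a coefficient of variation of 52.6% in the induced library against 16.97% in the control. Without the 5% of cells with the most counts its log2 ratio was 0.19. Only 48.0% of its 31-base words are unique. RPS20 went the other way across the same limit in the induced library, with 540 CPM inside and 384 CPM outside it, against 656 and 617 CPM in the control.

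Of the 6 measured paralogs 0 passed 1.2-fold, beside 24.9% higher and 28.1% lower among all measured genes. The median log2 ratio of the paralogs was 0.04, beside -0.04 for all measured genes. It was -0.12 under the limit and 0.22 in the cells with the fewest cell cycle counts. RPL22L1 had 792 CPM (786 to 798) in the induced library against 713 CPM (707 to 718) in the control, while RPL22 had 482 and 560 CPM. RPS27L had 244 and 237 CPM, while RPS27 had 1653 and 2165 CPM. The ratio within a pair is free of library scaling. RPS27L made up 12.9% of the counts of its pair in the induced library (95% interval 12.7 to 13.0, Clopper-Pearson) and 9.88% in the control (9.76 to 10.0), a log2 odds ratio of 0.43 (0.40 to 0.46). Over all cells this shift came with the lower level of RPS27 and a level of RPS27L that differed by 0.04 on the log2 scale. Under the limit both were lower in the induced library, RPS27L with 196 against 230 CPM and RPS27 with 1509 against 2132 CPM. Of the 270 words of RPS27 216 are shared with other genes, so its own level is uncertain.

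RPL22L1 made up 62.1% of its pair in the induced library against 56.0% in the control, a log2 odds ratio of 0.37, and here both copies differed, in opposite directions. RPL39L, whose protein lines the exit tunnel in place of RPL39, made up 12.2% against 10.7% (0.20), with 212 and 205 CPM for RPL39L and 1531 and 1706 CPM for RPL39. For RPL26L1 the shares were 7.76% and 7.29% (0.10). RPL36AL made up 73.5% of its pair's counts in the induced library against 73.1% in the control. The interval of its log2 odds ratio of 0.03, -0.01 to 0.07, includes 0. RPL7L1, a nucleolar protein of large-subunit assembly, was the exception, with 45.0% against 48.8% (-0.22), 167 against 185 CPM for itself and 204 against 195 CPM for RPL7. RPL3L, a copy known from striated muscle, was under 10 CPM with 180 counts in the induced library against 260 in the control. RPL10L, known from the testis, had 0 counts in both, which allows up to 0.0373 CPM in the induced library against 0.0315 CPM in the control.

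**Figure D2:**
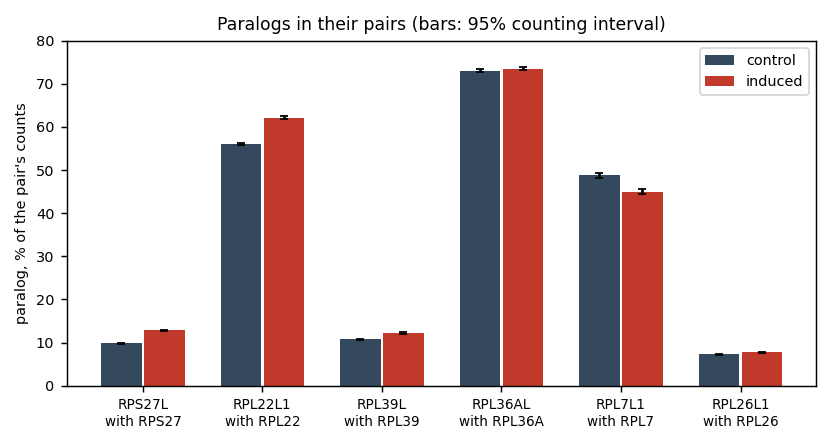
Paralog counts as a percent of the summed counts of paralog and main copy, in the control and the induced library, with 95% Clopper-Pearson intervals as error bars. RPS27L, RPL22L1 and RPL39L take a larger part of their pair in the induced library, RPL36AL has overlapping intervals, and RPL7L1 takes a smaller part.

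Cells were thinned to 53000 counts each for values per cell, which kept 562 induced and 766 control cells and left out 104 and 190 shallower ones. The median family share of a cell's counts was 13.7% in the induced library (5th to 95th percentile 7.97 to 21.8%) and 15.3% in the control library (11.4 to 23.2%). The induced library reached further down: 24.9% of its cells (interval 21.4 to 28.7) lay below the control library's 5th percentile, and 3.02% above its 95th. The family share went with technical measures in both libraries. Across the cells of the induced and of the control library, which share a library and a thinned depth, its Pearson r was -0.47 and -0.20 with the mitochondrial percent, -0.42 and -0.38 with MALAT1 counts, and 0.34 and 0.46 with a cell's total counts before thinning. With HRAS counts r was -0.07 and 0.04. In the limited set of cells described for RPS26, the difference in median share was -2.36 percentage points, against -1.59 in all thinned cells.

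**Figure D3:**
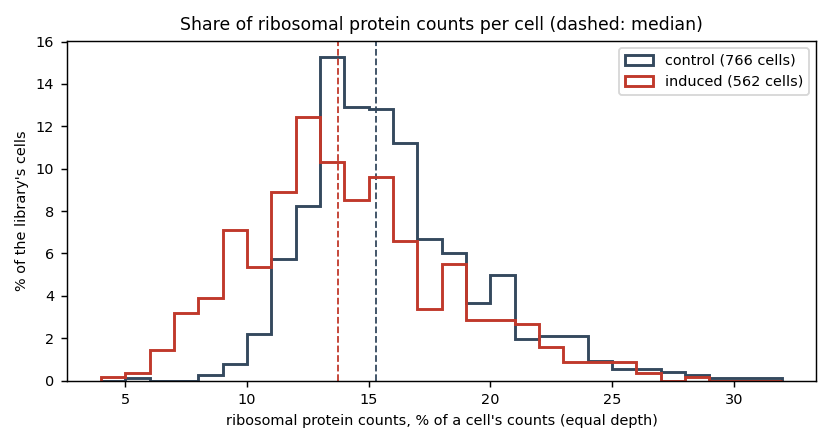
Percent of a cell's counts that fall on ribosomal protein genes, at equal depth, for 562 induced and 766 control cells, as a percent of each library's cells; dashed lines mark the medians of 13.7% and 15.3%. The induced cells extend further to low shares and both libraries extend above 25%.

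The libraries differ in cell cycle genes, so cells were put into 4 bins by their summed counts of S and of G2 and M phase genes at equal depth. The lowest bin, under 163 counts, held 264 induced and 67 control cells, and the highest 79 and 255; these bins are ranges of a score, and 47 cells lay within 10% of the lowest limit. In the control library the median family share was 17.2, 17.3, 15.6 and 13.7% from the lowest to the highest bin, and in the induced library 13.2, 15.7, 13.9 and 12.9%. The libraries were thus furthest apart where cell cycle counts were lowest. There 77 of 83 members were lower in the induced library, with a median log2 ratio at equal depth of -0.40, beside 43.8% of all measured genes with a median of 0.06. In the highest bin 59 of 83 were lower with a median of -0.07, beside 51.4% with a median of -0.01. Within the control library 74 of 83 members were lower in the highest than in the lowest bin (median -0.37), and within the induced library 48 of 83 (median -0.06). The same share over all measured genes was not computed, so whether these counts are particular to the members cannot be told. RPL23 went from 1553 to 991 CPM between these bins in the control library and from 811 to 772 CPM in the induced library. RPSA went from 990 to 978 CPM in the control and from 682 to 1022 CPM in the induced library.

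RPL39L was among the 9 of 83 members that were higher in the highest than in the lowest bin of the control library. It stood there at 95.7, 176, 219 and 231 CPM from the lowest to the highest bin. Its log2 ratio of highest over lowest, 1.27, was the largest of the 83 members. In the induced library, where 35 of 83 members were higher in the highest bin, RPL39L stood at 148, 241, 254 and 269 CPM, above the control in each bin. Its share of the pair with RPL39 went from 9.23 to 18.5% in the induced library and from 4.81 to 14.2% in the control library. Split instead by the limit on MALAT1 and mitochondrial percent, RPL39L stood at 182 CPM in induced against 199 CPM in control cells inside it, and at 247 against 254 CPM outside it. RPS27L stood at 176, 260, 242 and 214 CPM in the control and at 213, 240, 218 and 221 CPM in the induced library, so that it was higher in the induced library in the lowest bin and lower in the middle bins. RPL22L1 went from 718 to 634 CPM in the control and from 826 to 681 CPM in the induced library. In the lowest bin the log2 odds ratios of the pairs at equal depth were 1.01 for RPL39L, 0.87 for RPS27L, 0.65 for RPL22L1, 0.50 for RPL26L1 and 0.28 for RPL36AL, and that of RPL7L1 was 0.18, opposite in sign to its value over all cells.

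**Figure D4:**
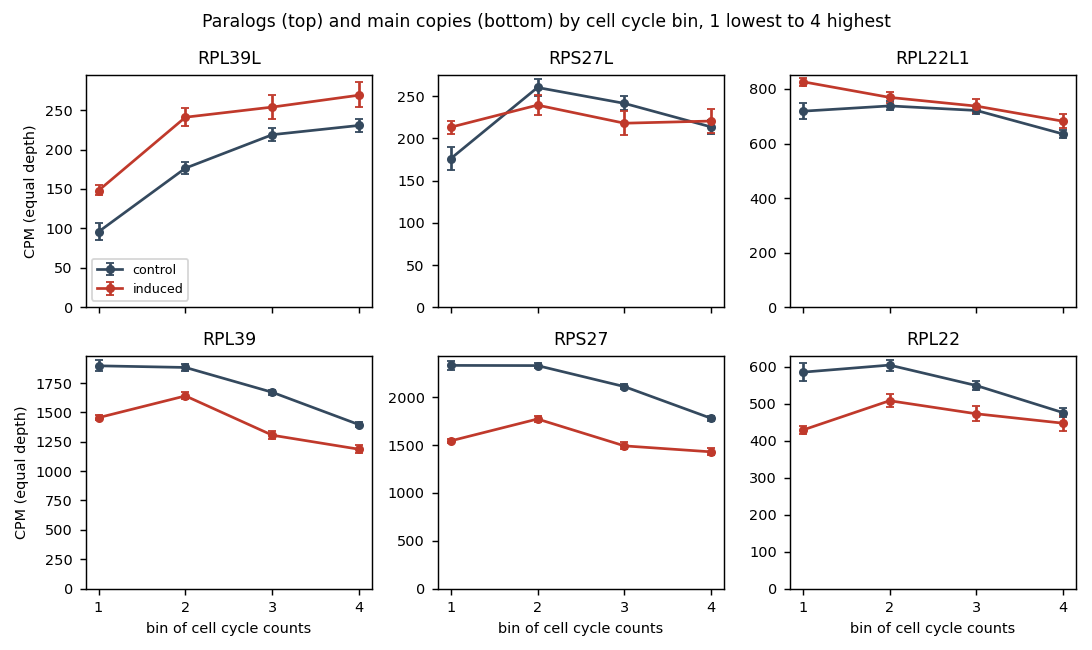
CPM at equal depth of 3 paralogs (top) and their main copies (bottom) in 4 bins of cell cycle counts, control and induced library, with 95% Poisson intervals. RPL39L climbs from 95.7 to 231 CPM in the control and from 148 to 269 CPM in the induced library while RPL39 is lower in the highest than in the lowest bin of both.

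Main members had a lower median spread between cells than all genes above the same floor. Beyond counting noise, the median coefficient of variation at equal depth was 36.0% in the induced library against 26.3% in the control for the 75 main members with at least 100 CPM, against 42.9% and 30.8% for all 1735 genes at that level. The 6 paralogs at that level had medians of 41.7% and 32.0%. RPL22L1 had the highest value in the induced library, 60.7% (45.2% in the control), and was present in every thinned cell, with 5th and 95th percentiles of 6.05 and 90.0 counts in the induced library against 12 and 65.8 in the control. RPS20 (54.8% and 47.9%) and RPL23 (50.7% and 47.6%) were high in both libraries. By variance over mean, which grows with abundance, the leading members were RPLP1 (76.7), RPL41 (46.8) and RPL12 (45.6) in the induced library.

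The main members had higher correlations with one another across cells of a library than the paralogs had with them. The Pearson r of a gene with the summed other members had a median of 0.76 in the induced library against 0.74 in the control over 77 main members, of which 57 and 64 reached 0.5. For the 6 measured paralogs the medians were 0.24 and 0.12, and 0 reached 0.5. Few counts per cell lower such an r, and several main members with few counts were as low. RPS2 and RPSA had low values despite many counts, 0.22 and 0.29 in the induced library against 0.41 and 0.30 in the control. With its own main copy RPL22L1 had an r of -0.06 in the induced library against 0.15 in the control.

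**Figure D5:**
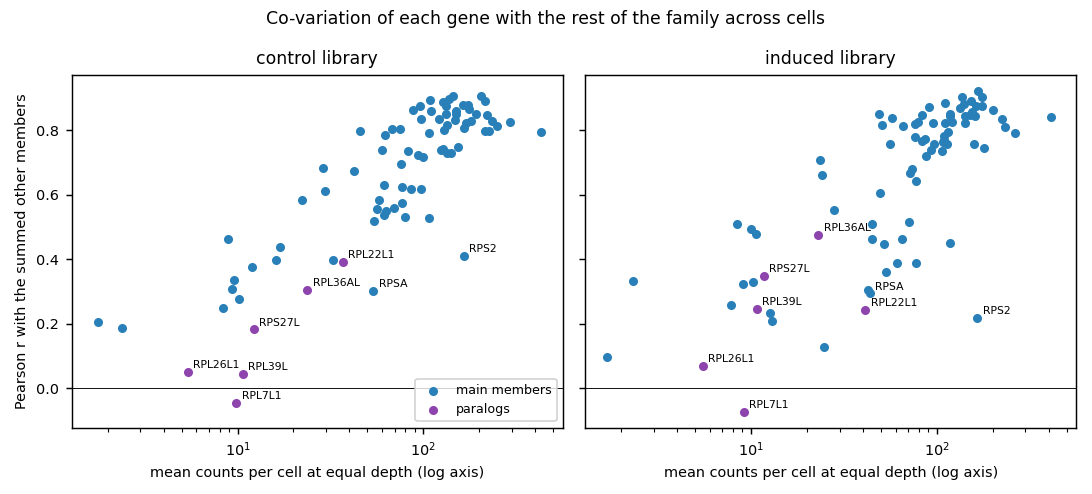
Pearson r of each gene's counts with the summed counts of the other members across cells at equal depth, against its mean counts per cell (log axis), for the control (766 cells) and the induced library (562 cells). Main members with more than 100 counts mostly lie above 0.7, while the 6 paralogs lie under 0.5 in both libraries.

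FAU, a ubiquitin-like fusion that encodes a further ribosomal protein, stood at 1268 against 1098 CPM, a log2 ratio of 0.21. Of 33 measured translation factors 4 were higher and 11 lower by 1.2-fold or more (median -0.14), with EIF1, which guards start codon choice, at 0.73 and EIF4A2 at 0.35. At the lower end EIF3L stood at -0.53 and EIF4A1, the main cap-dependent helicase, at -0.66. EIF4A1 had only 8.55 CPM in the induced library against 14.1 CPM in the control, near the floor of 10 CPM, so its ratio is uncertain. Of 28 measured other messages with a terminal oligopyrimidine tract 2 were higher and 8 lower (median -0.10), with the intermediate filament gene VIM at 3.04, the snoRNA host GAS5 at 0.56, and HNRNPA1 and NAP1L1 at -0.57 and -0.56. Of 70 measured ribosome assembly factors 4 were higher and 24 lower (median -0.17). Among them were the nucleolar proteins fibrillarin (FBL, 93.3 against 162 CPM) and nucleolin (NCL, 654 against 1054 CPM), while SBDS (270 against 176 CPM) and EIF6 (164 against 111 CPM), which act in the last step of large-subunit maturation, were higher. Of 18 measured RNA polymerase I genes 7 were lower and 0 higher (median -0.12), with its cofactor UBTF at -0.52 and TAF1B at -0.50, and POLR2K at 0.26 and RRN3 at 0.18.

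Of 13 chaperones and importers of ribosomal proteins 3 were higher and 8 lower (median -0.30), with the importins IPO5 at -0.76 and IPO7 at -0.65, and PDCD2L at 0.39 and RPS19BP1 at 0.33. Of 23 measured genes of growth control of translation 2 were higher and 11 lower (median -0.25), with the mTOR activator RHEB at 0.45 and RPS6KA6 at 0.42, and PDCD4, an inhibitor of EIF4A, at -0.62 and RPS6KA5 at -0.60. All these shares stand beside the background of 24.9% higher and 28.1% lower, and the medians beside -0.04 for all measured genes. Under the limit on MALAT1 and mitochondrial percent the medians were -0.11 for translation factors, -0.14 for the other tract-bearing messages, -0.15 for assembly factors, -0.20 for RNA polymerase I, -0.22 for chaperones and -0.12 for growth control, beside 0.02 for all measured genes. In the cells with the fewest cell cycle counts they were, in the same order, -0.23, -0.39, -0.02, -0.09, -0.18 and 0.03, beside 0.07.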

How the data were processed

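The authors deposited raw counts, with 36027 genes as rows and 1622 cells as columns, from the 10x Genomics 3′ assay per the labels. Per the submitters' processing notes they were made with kallisto and bustools. The sources used here give no version, genome build or annotation. The deposited cell annotation gives each cell's library and, as the authors computed it, the percent of mitochondrial counts, and calls each of the 1622 cells a singlet; the way doublets were removed is unstated in those sources. Column sums differed from the annotated totals by at most 192 counts, and 376 rows repeat a symbol. Counting can split or drop reads of near-identical copies, so such members are uncertain; their uniqueness was taken from 31-base words of the last 300 bases of GENCODE transcripts.

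Counts were summed per library and scaled to CPM by the library total, and log2 ratios used a pseudocount of 1 CPM, which understates differences of low genes. A gene counted as measured if it reached 10 CPM in 1 library or both. Intervals of levels, ratios and shares are exact at 95% (Poisson, conditional or Clopper-Pearson), and those of log2 odds ratios use the normal approximation. These intervals, and the spread beyond counting noise, take each count as a separate molecule. No test was run, since cells are not replicates. Named genes were all paralogs with their main copies, RPSA and the stalk genes, the 6 highest and 6 lowest log2 ratios, the 5 highest control levels, the most variable 3, and the 2 highest and 2 lowest of each other list; RPS2, RPL13A, RPL27A and the spread of RPS20 and RPL23 were added to these once their values had been seen. Not every gene that falls under the rule is reported here. The members and lists were chosen with earlier results of these data known. Alternatives changed the scale (edgeR 4.0.16 TMM factors, DESeq2 1.42.0 size factors), pseudocount, filter and cells. Scripts ran in Python 3.11.15 (numpy 2.4.6, scipy 1.17.1, pandas 2.3.3) and R 4.3.3 and were tested on simulated data.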

Additional observations from a re-analysis of the deposited data

How the results depend on the processing

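No paired analysis was possible because each group has 1 library. The cells left were 406 induced and 871 control under the limit on MALAT1 and mitochondrial percent, and 264 and 67 in the lowest bin of cell cycle counts; values in these cells use all their counts, without thinning, and the cause of each change was not tested. The log2 ratio of the family share, -0.145, became 0.015 with DESeq2 size factors, -0.033 with TMM factors, -0.20 without mitochondrial genes, -0.24 without members and mitochondrial genes, -0.29 under the limit, -0.35 in the lowest bin, -0.148 as a mean over cells, -0.149 without the 20% of cells with the fewest counts and -0.17 without the 5% with the most. The median log2 ratio, -0.12, became 0.043 with DESeq2, -0.0046 with TMM, -0.17 and -0.21 with the same totals, -0.26 under the limit and -0.34 in the lowest bin. The 3 members at least 1.2-fold higher became 7 with DESeq2, 5 with TMM, 0 under the limit and 1 without the 5% of cells; the 21 lower became 6, 11, 42 and, in the lowest bin, 55. Of all measured genes 17.5% were lower under the limit and 23.4% in the lowest bin, against 28.1% over all cells. Of all genes called at 1.2-fold, 47.0% were higher with the library total, 63.7% with TMM and 70.2% with DESeq2. The matching shares of called members were 12.5%, 31.2% and 53.8%. The share per cell, -1.59 percentage points, became -2.10 without mitochondrial genes, -2.36 under the limit and -3.99 in the lowest bin. The large-subunit difference, 2.25 points, became 1.53 under the limit, 2.35 in the lowest bin, 2.06 as a mean over cells, 2.16 without the 5 members with the most counts and 2.10 without the 5% of cells.

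Log2 odds ratios of the pairs in the lowest bin were 0.55 for RPL22L1, 0.55 for RPL26L1, 0.26 for RPL36AL, 0.94 for RPL39L, 0.85 for RPS27L and 0.19 for RPL7L1, which changed sign. As means over cells they were 0.33 for RPL22L1, 0.051 for RPL26L1, 0.24 for RPL39L, 0.35 for RPS27L and -0.011 for RPL36AL, which changed sign. Under the limit they were -0.0034 for RPL36AL, which changed sign, -0.11 for RPL7L1 and 0.26 for RPS27L, and without the 5% of cells -0.12 for RPL7L1 and 0.33 for RPS27L. Of the named members only RPL6 went from a called value to the other sign, at -0.084 in the lowest bin. If each count is a separate molecule, counting error at this depth was small for most members. How duplicates were collapsed is not stated, so the intervals can be too narrow. In either case 1 library per group limits the comparison.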

Other observations

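Mitochondrial ribosomal proteins, which are encoded in the nucleus and serve the ribosome inside mitochondria, spread as narrowly as the cytosolic ones, with an SD of 0.19 of their log2 ratios. Of 73 measured, 2 were at least 1.2-fold higher in the induced library and 10 lower, with a median of -0.05, beside 24.9% and 28.1% of all measured genes and a median of -0.04. The median was -0.16 under the limit on MALAT1 and mitochondrial percent and 0.07 in the cells with the fewest cell cycle counts. MRPL11 stood at 129 against 226 CPM and MRPS6 at 78.8 against 112 CPM, while MRPL55 stood at 156 against 114 CPM and MRPL41 at 455 against 376 CPM. The 585 rows named as pseudogenes of cytosolic ribosomal proteins summed to 174 CPM with doxycycline against 189 CPM without, and 3 of them were measured, RPL23AP82 with 29.2 against 16.6 CPM, RPS2P32 with 12.3 against 10.9 CPM and RPL32P3 with 13.4 against 16.4 CPM.

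Of 15 measured p53 targets 7 were higher and 6 lower (median 0.21; 0.07 under the limit and 0.12 in the cells with the fewest cell cycle counts), with TP53I3 at 1.49 and BBC3 at 0.87, and BTG2 at -1.85 and AEN at -0.62. Of 18 genes of ribosome rescue and quality control 2 were higher and 7 lower (median -0.19; -0.02 in each limited set of cells), with PELO, which frees stalled ribosomes, at 99.2 against 57.1 CPM and GTPBP2 at 23.5 against 16.9 CPM, and MAP3K20, a sensor of stalled ribosomes, at 16.2 against 25.8 CPM and G3BP1 at 110 against 169 CPM. These counts, too, stand beside 24.9% higher and 28.1% lower among all measured genes.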
